A study of Homo sapiens with 12 samples.

Results

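Insulin and the insulin-like growth factors signal through a small set of genes, and the expression of 6 of them, INSR, IGF1R, IGF2R, IGF2, IRS1 and IRS2, was examined in hepatocellular carcinoma (HCC) cells treated with inhibitors of mTOR and SHP2. The genes were chosen by name, and all 6 were found among the 11548 genes of the expression table. Poly(A) RNA was sequenced from the established HCC cell lines Hep3B, MHCC97H and Huh7, each labelled wild type (WT) and each represented by 1 library per condition, 12 in all. Per cell line, the 4 conditions were untreated cells, cells with AZD8055 at 100 nM (which blocks the mTOR kinase), cells with compound #57 (an inhibitor of the phosphatase SHP2, at a dose that is not given in the sources used here for the single drug), and cells with AZD8055 together with 5 µM of compound #57. Hep3B and Huh7 were collected after 48 h and MHCC97H after 24 h, so the effects of line and exposure time cannot be told apart. A library is RNA of treated cells of 1 cell line, and nothing states that a condition was cultured more than once within a line.

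Insulin and IGF ligands bind the receptor tyrosine kinases INSR and IGF1R, which phosphorylate the docking proteins IRS1 and IRS2. The docking proteins recruit PI3K and, through adaptors such as GRB2 and SHP2 itself, the RAS pathway. PI3K activates AKT and mTORC1. Active mTORC1 and its kinase S6K restrain IRS proteins, and AKT keeps FOXO transcription factors out of the nucleus, so the pathway feeds back on its own receptors and docking proteins. IGF2 is an imprinted fetal growth factor that many liver tumours express, and IGF2R, which carries mannose 6-phosphate tagged enzymes to lysosomes, takes IGF2 up for degradation without a kinase domain.

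The libraries held between 10659952 and 15957252 reads, and the genes of the table took between 98.6% and 99.3% of them. The deposited log2 values gave back whole reads for 100% of entries, and levels are quoted below as these reads or as reads scaled to 10000000 per library. Unscaled reads also vary with the library total, so their order can differ from that of the scaled values. Changes within a cell line are differences of log2 values between 2 libraries, with a 95% Clopper-Pearson interval of the ratio of reads. These intervals cover counting error only, compare libraries and not conditions, and come without a p-value. In such bulk RNA, fewer expressing cells and less RNA per cell cannot be told apart. A treatment effect common to the lines was estimated by limma from all 12 libraries, with the cell line as a term and Benjamini-Hochberg adjustment over all 11548 genes, and a gene was called at an adjusted p under 0.05. Hep3B and Huh7 expressed all 10 hepatocyte and liver cancer markers examined, with summed scaled reads of 237423 to 557099 and 358242 to 492415. In MHCC97H this sum was 52971 to 61783, most of it from the keratins KRT8 and KRT18, while TTR had 0 to 3 reads and APOA1 4 to 10 in a library. Of 5 fibroblast or mesenchymal markers listed, 3 were analysed, without COL3A1 and PDGFRA. VIM was low in MHCC97H (63 to 116 reads) and abundant in Hep3B (5295 to 28885) and Huh7 (5180 to 13775). The collagen gene COL1A2 did not follow VIM in Hep3B, with 9 to 26 reads there, 0 to 2 in MHCC97H and 732 to 1528 in Huh7. COL1A1 had 30 to 247, 13 to 29 and 147 to 1069 reads in the same order. Of 5 blood or endothelial markers listed, only PECAM1, an endothelial marker, was analysed. PECAM1 was higher in MHCC97H (371 to 617 reads) than in Hep3B (7 to 27) or Huh7 (5 to 89). The part of these differences in the results below was not tested.

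With AZD8055, IRS2 and INSR rose across the cell lines, and the other 4 genes had higher values in every line without passing the test. IRS2 had the sixth largest increase of the table (rank 6 of 11548), with an estimate of 2.59 on the log2 scale (SE 0.37) and an adjusted p of 0.0268 in limma. INSR ranked 408 with an estimate of 1.03 (SE 0.18), for which limma gave an adjusted p of 0.0335. These were 2 of 6 genes called, while 2.96% of all genes were called in this comparison (255 higher and 87 lower). IGF1R changed by 0.84 (SE 0.26, limma adjusted p = 0.0818), IRS1 by 0.80 (SE 0.33, limma adjusted p = 0.149), IGF2 by 0.64 (SE 0.21, limma adjusted p = 0.09) and IGF2R by 0.44 (SE 0.19, limma adjusted p = 0.167). All 6 had an unadjusted p-value under 0.05, as did 3165 genes of the table, and all 6 were higher in 3 of 3 cell lines.

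Neither call held when a cell line was left out, when only the untreated and AZD8055 libraries entered the fit (limma adjusted p = 0.0641 for both genes, with the same estimates) or when the fit had no term for the cell line. Calls among all genes fell in these fits too, from 342 to 0, 1 and 109 without Huh7, Hep3B and MHCC97H. They fell to 2 with only the compared libraries and to 0 without the cell line term, so the loss was not particular to IRS2 and INSR. Leaving out MHCC97H, Hep3B or Huh7 gave IRS2 a limma adjusted p of 0.0599, 0.109 or 0.366 and INSR one of 0.0866, 0.109 or 0.366, although the log2-fold changes stayed between 2.19 and 3.16 for IRS2 and between 0.93 and 1.20 for INSR. The canonical transcripts of the 6 genes measured 5580 to 14061 bases. The 3015 genes with transcripts of at least 5000 bases had a median change of 0.10 with AZD8055, against 0.00 for 7602 shorter ones. Of these longer and shorter genes, 3.4% and 2.9% were called, and the part of transcript length in the results was not tested. After adjustment of each library for transcript length and GC content, an alternative chosen after the data were seen, IRS2 stood at 2.26 and INSR at 0.78, both still called by limma (adjusted p of 0.033 and 0.035). The same adjustment gave 0.54 for IGF1R, 0.55 for IRS1, 0.35 for IGF2 and 0.14 for IGF2R.

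IRS2, a docking protein with a main part in hepatic insulin action, lies on chromosome 13 of hg38 (109752695 to 109786583, minus strand, 2 exons, GENCODE release 44). In Hep3B it had 394 reads in untreated cells, 1226 with AZD8055, 624 with compound #57 and 1254 in the combination. In Huh7 the reads were 110, 879, 117 and 627 in the same order. In MHCC97H they were 17, 152, 40 and 125. In each cell line the 2 libraries with AZD8055 lay above the 2 without it. The log2-fold change with AZD8055 was 1.44 in Hep3B (95% interval 1.28 to 1.61), 3.39 in Huh7 (3.12 to 3.71) and 2.94 in MHCC97H (2.30 to 3.85), which correspond to 2.71-, 10.6- and 8.17-fold more scaled reads. Hep3B, the line with the most IRS2 in untreated cells (369.6 scaled reads, against 68.9 in Huh7 and 13.1 in MHCC97H), had the smallest change, and with AZD8055 Hep3B and Huh7 stood at 1002.8 and 730.6 scaled reads. The difference in change between the lines was not tested. In MHCC97H the change rests on the 17 reads of the untreated library, and IRS2 was the member whose values spread most around the fit (residual SD 0.55 on the log2 scale, percentile 92.1 of all genes, for which the median was 0.225).

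The upstream sequence of IRS2 is shown because IRS2 was the member with the largest change and because the insulin response core CAAAACA, in the letters bound by FOXO factors, was among the motifs searched on both strands. Promoter windows of 300 bases from 250 before to 50 after the gene start came from RefSeq (GRCh38.p14) and matched 5 of the 6 genes. The window of IRS2 held 1 match to CAAAACA, written TGTTTTG on the gene's strand and starting 40 bases before the gene start, and none of the other 4 windows held one. Of 35116 windows, 4.9% held this motif. The full forkhead core TGTTTAC, found in 3.4% of windows, was in none of the 5. The 250 bases before the start lie at chr13:109786584-109786833 (minus strand), with the match in capitals.
IRS2: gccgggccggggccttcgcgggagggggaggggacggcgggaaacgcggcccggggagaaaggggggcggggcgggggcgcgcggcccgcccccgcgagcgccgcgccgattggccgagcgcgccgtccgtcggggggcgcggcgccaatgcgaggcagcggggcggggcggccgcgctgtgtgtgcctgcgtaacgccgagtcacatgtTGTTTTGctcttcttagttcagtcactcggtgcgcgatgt

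IRS1, the docking protein best known from muscle and fat and the target of S6K phosphorylation, lies on chromosome 2 (226731312 to 226799820, minus strand, 2 exons). Its reads in untreated cells, with AZD8055, with compound #57 and in the combination were 786, 1167, 2568 and 2014 in Hep3B. In MHCC97H they were 1563, 3659, 1475 and 4273, and in Huh7 1723, 2501, 1345 and 1711. The pattern of the scaled reads differed by line, with AZD8055 and the combination highest in MHCC97H and AZD8055 highest in Huh7. In Hep3B, compound #57 and the combination were highest and level with each other (1644.2 and 1632.1 scaled reads). Unlike the unscaled reads, the scaled value stood above untreated cells with compound #57 in MHCC97H (1295.1 against 1200.8). The same held for the combination in Huh7 (1472.5 against 1079.8). The log2-fold change with AZD8055 was 0.37 in Hep3B (0.24 to 0.50), 0.94 in Huh7 (0.86 to 1.03) and 1.10 in MHCC97H (1.01 to 1.18). The residual SD of IRS1 was 0.496, at percentile 89.5.

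The balance of both docking proteins thus moved with AZD8055 in every line. Per kb of transcript, IRS1 had 1.67 times the reads of IRS2 in untreated Hep3B (95% interval 1.47 to 1.88) and 0.795 times with AZD8055 (0.733 to 0.862). In Huh7 the ratio went from 13.1 (10.8 to 16.0) to 2.37 (2.20 to 2.57), and in MHCC97H from 76.7 (47.8 to 132) to 20.1 (17.1 to 23.8). IRS1 remained the more abundant in MHCC97H and Huh7 under all 4 treatments, and in Hep3B with the exception of AZD8055. In the combination the ratio was 1.34 in Hep3B, 2.28 in Huh7 and 28.5 in MHCC97H. With compound #57 it was 3.44, 9.6 and 30.8.

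INSR, the insulin receptor, lies on chromosome 19 (7112255 to 7294414, minus strand, 22 exons). In Hep3B its reads were 587 in untreated cells, 1080 with AZD8055, 1626 with compound #57 and 2193 in the combination. In MHCC97H they were 319, 815, 371 and 857, and in Huh7 923, 1573, 1185 and 1663. The untreated library was the lowest and the combination the highest in every line on the scaled values. The log2-fold change with AZD8055 was 0.68 in Hep3B (0.54 to 0.83), 1.18 in Huh7 (1.06 to 1.30) and 1.22 in MHCC97H (1.03 to 1.41). INSR was also the only one of the 6 genes with an interval above 0 in all 3 lines for compound #57, with 0.92 in Hep3B (0.78 to 1.06), 0.60 in Huh7 (0.47 to 0.72) and 0.41 in MHCC97H (0.19 to 0.63).

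The sequence upstream of INSR is given because INSR moved in the same direction under each treatment, and for comparison with IRS2. It held 4 matches to the SP1 motif GGGCGG, the first 3 overlapping by 1 base, starting 97, 92, 87 and 77 bases before the gene start. This motif was in all 5 windows and in 45.0% of the 35116, and the 5 windows had a GC content of 75.7% to 79.7%. The bases lie at chr19:7294415-7294664 (minus strand), with the matches in capitals.
INSR: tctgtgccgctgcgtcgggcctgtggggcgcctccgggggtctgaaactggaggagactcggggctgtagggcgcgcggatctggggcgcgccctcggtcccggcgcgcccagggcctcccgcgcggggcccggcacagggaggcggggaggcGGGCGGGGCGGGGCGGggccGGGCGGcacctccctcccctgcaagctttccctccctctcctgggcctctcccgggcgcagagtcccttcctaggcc

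IGF1R, the receptor of IGF1 and IGF2, lies on chromosome 15 (98648539 to 98964530, plus strand, 21 exons). Its reads in untreated cells, with AZD8055, with compound #57 and in the combination were 727, 1471, 1217 and 2296 in Hep3B. In MHCC97H they were 1005, 1822, 1022 and 1473, and in Huh7 453, 676, 354 and 326. AZD8055 alone gave a higher scaled value than untreated cells in all 3 lines, whereas the combination stood highest in Hep3B and level with untreated cells in Huh7. The log2-fold change with AZD8055 was 0.82 in Hep3B (0.69 to 0.95), 0.98 in Huh7 (0.81 to 1.16) and 0.73 in MHCC97H (0.62 to 0.84). Per kb, INSR and IGF1R were near each other in untreated Hep3B (ratio 1.04, 0.935 to 1.17), whereas IGF1R prevailed in untreated MHCC97H (0.41, 0.361 to 0.466) and INSR in untreated Huh7 (2.63, 2.35 to 2.95). In the combination the ratio was 1.23, 0.752 and 6.60 in the same order, above its value in untreated cells in each line.

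INSR and IGF1R are related receptors, as are IRS1 and IRS2 among docking proteins, so reads could in principle be shared. The longest run of identical coding bases was 23 for the receptors (chr19:7267668-7267690 and chr15:98707765-98707787) and 24 for the docking proteins (chr2:226797968-226797991 and chr13:109785181-109785204), each within 1 exon of both genes and occurring once in each transcript. The read length and the treatment of reads with several matches are not given in the sources used here. Both runs are printed in the direction of the gene, without capitals since every base is shared.
INSR and IGF1R: ttccccaacctcacggtcatccg
IRS1 and IRS2: cacgagaccatcctggaggccatg

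IGF2R, the cation-independent mannose 6-phosphate receptor, lies on chromosome 6 (159969082 to 160113507, plus strand, 48 exons) and changed least of the 6 genes with AZD8055. Its reads in untreated cells, with AZD8055, with compound #57 and in the combination were 7578, 9358, 9681 and 12989 in Hep3B. In MHCC97H they were 4961, 8180, 4287 and 5365, and in Huh7 5709, 6632, 5156 and 4012. Scaled to depth, compound #57 stood below untreated cells in Hep3B (6198.5 against 7108.9) and above them in Huh7 (3803.8 against 3577.7), the reverse of the unscaled reads. The combination was the highest scaled value in Hep3B and the lowest in Huh7. The log2-fold change with AZD8055 was 0.11 in Hep3B (0.06 to 0.15), 0.62 in Huh7 (0.57 to 0.67) and 0.59 in MHCC97H (0.54 to 0.64). IGF2R was the member nearest to IGF1R over the libraries, with a Pearson correlation of 0.89 after subtraction of each line's mean. This value describes 12 libraries that share 3 cell lines, and correlations of the other 14 pairs lay between 0.30 and 0.88.

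The upstream sequence of IGF2R is given since it was the member with the most matches to the E-box CACGTG, the letters read by MYC and by TFEB, a lysosomal regulator under mTORC1 control. Of all windows, 7.3% held this motif. IGF2R held 3 matches, starting 132, 74 and 28 bases before the start, IRS1 held 1 match after its start, and the windows of INSR, IGF1R and IRS2 held none. The bases lie at chr6:159968832-159969081 (plus strand), with the matches in capitals.
IGF2R: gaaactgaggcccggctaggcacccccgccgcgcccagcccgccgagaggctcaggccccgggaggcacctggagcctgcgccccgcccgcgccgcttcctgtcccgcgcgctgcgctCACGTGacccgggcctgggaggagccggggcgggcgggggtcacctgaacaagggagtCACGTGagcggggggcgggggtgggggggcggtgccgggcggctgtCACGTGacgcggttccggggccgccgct

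Motifs for cAMP response, TGACGTCA, and for the sterol element core, TCACNCCA, were in none of the 5 windows and in 1.8% and 3.9% of all windows. The shorter TGACG, in 24.6% of all windows, was in those of INSR, IRS1 and IGF2R, once in each. These matches describe letters and not bound sites.

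IGF2, the fetal growth factor, lies on chromosome 11 (2129112 to 2158391, minus strand) and was the most abundant of the 6 genes per kb in Hep3B and Huh7 and among the 2 least abundant in MHCC97H. Its reads in untreated cells, with AZD8055, with compound #57 and in the combination were 32555, 53346, 72795 and 45793 in Hep3B. In Huh7 they were 36857, 42373, 34126 and 41761, and in MHCC97H only 20, 39, 23 and 16. Scaled to depth, compound #57 stood above untreated cells in Huh7 (25176.5 against 23097.3), the reverse of the unscaled reads. The log2-fold change with AZD8055 was 0.51 in Hep3B (0.49 to 0.53), 0.61 in Huh7 (0.59 to 0.63) and 0.79 in MHCC97H (0.02 to 1.69), the last from so few reads that its interval nearly reached 0. Per kb, IGF2 had 8.88 to 18.9 times the reads of IGF2R in Hep3B and 16.1 to 26.2 times in Huh7, and at most 0.0135 times in MHCC97H. IGF2 shares its locus with INS-IGF2 on the same strand and IGF2-AS on the other. IGF1R, IRS2 and IGF2R also overlap annotated genes on the opposite strand. The libraries were stranded per the labels, but whether reads were counted by strand is not given in the sources used here, so reads of overlapping genes may be included.

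Set against all genes, a change of at least 2-fold with AZD8055 was found for 1 of the 6 genes in Hep3B (IRS2), for 3 in MHCC97H (IRS2, INSR and IRS1) and for 2 in Huh7 (IRS2 and INSR), and 0 were at least 2-fold lower. The share of all genes at least 2-fold higher was 3.81% in Hep3B, 5.89% in Huh7 and 7.14% in MHCC97H. The median change of the 6 genes was 0.60, 0.96 and 0.95 in the same order, beside a median over all genes of 0.02, -0.02 and 0.05.

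With compound #57 alone, 0 of the 6 genes were called, as was 0.00866% of all genes (1 gene, and 2501 before adjustment). Voom on the whole reads also called 0 of the 6 genes, although it called 90 of all genes. INSR had an estimate of 0.64 (SE 0.18) with an unadjusted p-value of 0.00603 and an adjusted one of 0.117 in limma, and was the 1 member under 0.05 before adjustment. The intervals of the other 5 genes included 0, with IRS2 at 0.60 (95% interval -0.23 to 1.42), IRS1 at 0.38 (-0.35 to 1.11), IGF2 at 0.37 (-0.09 to 0.83), IGF1R at 0.10 (-0.48 to 0.67) and IGF2R at -0.04 (-0.47 to 0.38). Within lines, IRS1 in Hep3B (1.16, 1.04 to 1.27) and IRS2 in MHCC97H (1.36, 0.58 to 2.34) were at least 2-fold higher, the latter on 40 against 17 reads. At least 2-fold higher were 8.96% of all genes in Hep3B, 4.43% in Huh7 and 3.12% in MHCC97H.

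In the combination against untreated cells, IRS2, INSR and IRS1 rose, 3 of 6 genes in a comparison in which 36% of all genes were called (2410 higher and 1744 lower). IRS2 changed by 2.42 (SE 0.37), INSR by 1.5 (SE 0.18) and IRS1 by 1.04 (SE 0.33), with adjusted p-values from limma of 0.00301, 0.00191 and 0.0339. All 3 were higher in every cell line. IGF1R changed by 0.69 (SE 0.26, limma adjusted p = 0.0616), and it was called with voom (limma adjusted p = 0.0467). IGF2 changed by 0.23 (SE 0.21) and IGF2R by 0.23 (SE 0.19), neither of them called. Without Huh7, 0 of the 6 genes were called (limma adjusted p 0.0617 for IRS2 and INSR and 0.0936 for IRS1), and without MHCC97H or with the adjustment for length and GC content IRS1 was lost (0.145 and 0.0714).

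Within lines, the change of INSR in the combination was 1.69 in Hep3B (1.56 to 1.82), 1.31 in Huh7 (1.19 to 1.42) and 1.5 in MHCC97H (1.31 to 1.69). For IRS2 the values were 1.46, 2.95 and 2.86 and for IRS1 1.15, 0.45 and 1.52 in these lines. For IGF1R they were 1.45, -0.02 and 0.63, the second with an interval of -0.23 to 0.19 that included 0. At least 2-fold higher were 4 of the 6 genes in Hep3B, 2 in Huh7 and 3 in MHCC97H, beside 11.6%, 12% and 11.4% of all genes.

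Against AZD8055 alone, the combination gave 0 calls among the 6 genes and among all genes (0%), although 1673 genes of the table had a limma p-value under 0.05 before adjustment, and voom made 0 calls too. INSR had the one interval above 0, with a change of 0.47 (95% interval 0.06 to 0.88, limma adjusted p = 0.293). The others were IRS1 at 0.24 (-0.50 to 0.97), IRS2 at -0.17 (-0.99 to 0.66), IGF1R at -0.16 (-0.73 to 0.42), IGF2R at -0.21 (-0.63 to 0.22) and IGF2 at -0.41 (-0.87 to 0.05). These means covered opposite values in the lines, since IGF1R changed by 0.63 in Hep3B and -1.0 in Huh7, IRS1 by 0.77 in Hep3B and -0.50 in Huh7, and IGF2R by 0.46 in Hep3B and -0.67 in Huh7. INSR was higher in each line, by 1.01 in Hep3B, 0.13 in Huh7 and 0.28 in MHCC97H. IRS2 was level in Hep3B (0.02, -0.10 to 0.13) and MHCC97H (-0.08, -0.43 to 0.27) and lower in the Huh7 library (-0.44, -0.59 to -0.29).

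Against compound #57 alone, the combination raised IRS2 by 1.83 (SE 0.37, adjusted p of 0.0345 in limma) and INSR by 0.86 (SE 0.18, adjusted p of 0.0391), 2 of 6 genes beside 4.18% of all genes. Both were higher in 3 of 3 cell lines, IRS2 by 1.34, 1.5 and 2.63 and INSR by 0.77, 1.09 and 0.71 in Hep3B, MHCC97H and Huh7. Leaving out any 1 cell line ended both calls (limma adjusted p between 0.0656 and 0.402). IGF1R changed by 0.59 (limma adjusted p = 0.188), IRS1 by 0.66 (0.24), IGF2R by 0.28 (0.385) and IGF2 by -0.14 (0.707). The comparisons of the combination share its 3 libraries, and those against untreated cells share the 3 untreated libraries, so their values are not independent of each other.

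On the log2 scale, the change of the combination was also compared with the sum of the changes of both single drugs. This interaction gave 0 calls among the 6 genes and among all genes (0%), where 178 genes had a limma p-value under 0.05 before adjustment, the smallest adjusted p was 1, and voom called 0 members. All 6 estimates were below 0, from -0.15 for IRS1 (95% interval -1.18 to 0.89) to -0.78 for IGF2 (-1.43 to -0.13, with p-values in limma of 0.0236 before and 1 after adjustment), with IRS2 at -0.76 (-1.93 to 0.40). Within lines, IRS2 in the combination fell short of the sum by 0.09 in Hep3B, as the sum was 1.55 and the combination 1.46. The sum was 4.30 in MHCC97H and 3.71 in Huh7, where the combination reached 2.86 and 2.95. For INSR in Hep3B the sum was 1.6 and the combination 1.69. IGF1R lay above its sum in Hep3B (1.45 against 1.01) and below it in Huh7 (-0.02 against 0.86). For IGF2 the combination minus the sum was -0.84 in Hep3B, -0.10 in Huh7 and -1.40 in MHCC97H. The MHCC97H value rests on 16 to 39 reads per library.

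The cell lines themselves also differed in these genes, with IGF2 as the widest case. For IGF2, MHCC97H minus Hep3B was -10.98 on the log2 scale (SE 0.18, limma adjusted p = 1.74e-10) and MHCC97H minus Huh7 was -10.57 (SE 0.18, limma adjusted p = 1.27e-10). IRS2 was highest in Hep3B, then Huh7, then MHCC97H, and each step passed the test (Hep3B against Huh7 1.49, limma adjusted p = 0.003, and MHCC97H against Huh7 -2.19, limma adjusted p = 0.000151). INSR was at like levels in Hep3B and Huh7 (-0.02, 95% interval -0.37 to 0.34) and lower in MHCC97H than in Huh7 (-1.22, limma adjusted p = 6.78e-05). IGF1R was lower in Huh7, since Hep3B stood 1.66 above it (limma adjusted p = 0.00018) and MHCC97H 1.62 (limma adjusted p = 9.9e-05), while MHCC97H and Hep3B differed by -0.04 (-0.54 to 0.45). IGF2R was higher in Hep3B than in Huh7 by 0.94 (limma adjusted p = 0.000881), and MHCC97H and Huh7 differed by 0.12 (-0.25 to 0.48). IRS1 was the most even, with MHCC97H above Hep3B by 0.72 (limma adjusted p = 0.0454), a call that was lost without the untreated, the AZD8055 or the combination libraries, and Hep3B and Huh7 differing by -0.20 (-0.83 to 0.44).

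In these terms 3 of the 6 genes were called between Hep3B and Huh7, 5 between MHCC97H and Hep3B and 4 between MHCC97H and Huh7, beside 55.1%, 67.8% and 70.2% of all genes. Here the 4 treatments stand in for replicates of a line, after removal of the treatment means. H19, the imprinted RNA next to IGF2 that is read from the other parental copy, had 80344 to 117521 reads in Hep3B, 13 to 17 in Huh7 and 266 to 859 in MHCC97H, so both lines with abundant IGF2 differed widely in H19. CDKN1C and PHLDA2, further imprinted genes of the region, had 14 to 39 and 1 to 6 reads in Huh7. CDKN1C had 239 to 3401 reads in Hep3B and 51 to 194 in MHCC97H, and PHLDA2 had 67 to 163 and 99 to 628. Liver markers were low in MHCC97H together with IGF2, since AFP had 59 to 89 reads there and 4144 or more in each library of Hep3B and Huh7, and the part of this in the result was not tested.

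Genes around the receptors were listed by role, with their counts in both AZD8055 comparisons given by direction. The counts for the combination are to be read beside the 36% of all genes called in it against untreated cells, 2410 of them higher and 1744 lower, and nothing particular to a list was tested. Among 15 analysed adaptors, AZD8055 raised NCK2 (0.80, SE 0.13, limma adjusted p = 0.0304) and no other passed the test, beside a list median of 0.24. In the combination 6 of the 15 adaptors rose and 2 fell against untreated cells, beside 36% called of all genes. GAB2 (1.23), GAB1 (1.10), SOS1 (1.09) and NCK2 (1.09) had the largest changes. GAB1 and GAB2 are docking proteins that bind SHP2, and SOS1 loads RAS with GTP. GRB2, the adaptor that brings SOS1 to receptors, and CRKL were the 2 that fell.

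Among 19 brakes of the receptors and IRS proteins, AZD8055 raised PTPRF, a receptor phosphatase (0.86, SE 0.13, limma adjusted p = 0.0268), as the one call. SOCS2 and SOCS3, suppressors of cytokine signalling, had estimates of 2.14 (limma adjusted p = 0.087) and 1.72 (limma adjusted p = 0.0618) that were not called. In the combination 6 of the 19 brakes rose and 2 fell, beside 36% called of all genes, with SOCS2 at 4.22 (SE 0.67, limma adjusted p = 0.00334), SOCS3 at 1.57 and CUL7, part of a ligase that degrades IRS1, at 1.04. The log2-fold change of SOCS3 was 0.06 in MHCC97H, beside 2.53 in Hep3B and 2.13 in Huh7. TRIB3, an inhibitor of AKT, changed by -0.98 and RPS6KB2, a form of S6K, by -0.44. The median of the list was 0.02 beside 0.09 over all genes.

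Of 13 genes between PI3K and AKT, 0 were called with AZD8055 by limma (2 at an unadjusted p under 0.05). In the combination PIK3CD (1.56) and PIK3CA (0.46), catalytic subunits of PI3K, were called higher, and 0 genes of the list were called lower. Of 10 genes that process or degrade ligands and receptors, MVP, the major vault protein, rose with AZD8055 (1.44, limma adjusted p = 0.0382). In the combination 2 of the 10 rose and 4 fell, beside 36% called of all genes. Among them were MVP at 1.64, HMGA1, a chromatin protein that activates INSR, at -1.26, CEACAM1, which promotes insulin clearance in liver, at -1.23, and IDE, the insulin-degrading enzyme, at -0.75. The log2-fold change of CEACAM1 was 0.02 in MHCC97H, so this gene was not lower in every cell line. In mannose 6-phosphate trafficking, where IGF2R works, PACS1 rose with AZD8055 (0.88, limma adjusted p = 0.0397). In the combination 5 of 21 genes rose and 2 fell, a share no higher than the 36% of all genes, with PACS1 (1.46), GNPTG (0.70) and RAB9A (0.64) above untreated cells and AP1B1 (-0.73) below.

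Of 5 analysed ligand regulators, 0 were called with AZD8055 by limma (1 at an unadjusted p under 0.05), and STC2, an inhibitor of the protease that frees IGF from its binding proteins, fell in the combination (-1.94, SE 0.35, limma adjusted p = 0.00459). IGF1, INS and IGFBP1 were not analysed here. Genes that insulin induces in liver were lower with AZD8055 in 9 of 9 cases without a call (3 at an unadjusted p under 0.05), with a median of -0.51. In the combination 6 of the 9 fell, beside 36% of all genes called in either direction, with ELOVL6 at -1.70, GPAM at -1.25, FASN at -0.90 and ACACA at -0.83. These encode enzymes that make and extend fatty acids and, for GPAM, start triglyceride synthesis. In MHCC97H, GPAM (0.21) and FASN (0.07) were not lower. Of 13 genes listed as repressed by insulin in liver, 7 were analysed, and PCK1, G6PC1, PPARGC1A and PDK4 were not among them. The 7 included G6PC3 and PCK2, for which repression by insulin was not established here. CCNG2, a FOXO target, rose in the combination (1.91, SE 0.51, limma adjusted p = 0.018) and 6 were not called. Among 6 analysed neighbours of IGF2 and IGF2R, PHLDA2 was the one called in the combination (-1.27, limma adjusted p = 0.0418), with 0.11 in Hep3B, -2.58 in MHCC97H and -1.35 in Huh7.

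Genes with the most similar pattern were found by the Pearson correlation over the 12 libraries after subtraction of each line's mean, among 9968 genes. Nearest to INSR were AGO4 (0.985), SLC38A9 (0.984) and CDS2 (0.979), and nearest to IRS2 were DOCK1 (0.982), NTPCR (0.973) and TBCEL (0.964). IRS1 was nearest to MTMR3 (0.963), MTURN (0.959) and FBXO8 (0.947). IGF1R was nearest to KAT6A (0.973), ARID1B (0.948) and HSPG2 (0.946), and IGF2R to SETD1B, GSE1 and ARID1B (0.933 each), so ARID1B stood in both lists. IGF2 had the least similar neighbours, NBPF9 (0.869), MAPK12 (0.86) and MDM4 (0.847). The values are descriptions picked as the highest of 9968 over libraries that share cell lines, treatments and depth.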

How the data were processed

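RNA of 3 HCC cell lines under 4 treatments was sequenced with 1 library each. TruSeq libraries were aligned by the authors to hg38, and the deposited table gives log2 values by gene. The read counting and scaling are not given in the sources used here. The values equal log2(reads × 10000000 / library total + 1.00069), with 0 reads written as 0.001, and gave whole reads (within 0.05 read) for 100% of entries. The totals rest on this scaling. Library totals of 10659952 to 15957252 reads limit precision by counting error, and 3 reads were taken as the floor. No member was at 0. Of the gene names, 18 were turned into spreadsheet day numbers and 4 stood on 2 lines.

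The log2 values of the 12 libraries were fitted with limma 3.58.1 (lmFit, eBayes with trend) in R 4.3.3, with treatment and cell line as terms and 6 residual degrees of freedom. Libraries were paired by being of the same cell line. For treatments, the p-values rest on how unevenly the lines respond once the line means are removed, and not on repeated cultures. For comparisons of cell lines, the 4 treatments stand in for repeats. Calls needed a Benjamini-Hochberg adjusted p under 0.05 over 11548 genes. The fit and the Clopper-Pearson intervals were tested on simulated data. Coordinates and transcript lengths came from GENCODE release 44. Transcript length and GC content were matched by symbol for 10617 genes (91.9%) and removed with a polynomial of degree 3 in 1 alternative. The further alternatives were 10 added to the linear values, the 75% of genes with the highest mean, median centring, voom on whole reads, no cell line or treatment term, only the compared libraries, and each line or treatment left out. Python 3.11.15, pandas 2.3.3 and scipy 1.17.1 were used. The 6 genes, the gene lists and the motifs were chosen with earlier results of these data known. Genes named beside the 6 were, per list and comparison, up to 4 called genes by size, the neighbours of IGF2 and IGF2R, and the 3 most similar genes per member with a mean log2 value of at least 6 and no 0. Others were named after their values were seen.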

Additional observations from a re-analysis of the deposited data

Results flagged for a closer look

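Values of opposite sign between the cell lines, each with a counting interval that excluded 0, were found for 4 of the genes. The difference between the lines was not tested, since each line had 1 library per condition, and exposure time differed with the line. For the combination against AZD8055, IGF1R changed by 0.63 in Hep3B and -1.0 in Huh7, and IRS1 by -0.5 in Huh7, 0.43 in MHCC97H and 0.77 in Hep3B. In the same comparison IGF2R changed by 0.46 in Hep3B, -0.4 in MHCC97H and -0.67 in Huh7, and IGF2 by 0.03 in Huh7, -0.23 in Hep3B and -1.02 in MHCC97H, the last on 16 against 39 reads. For compound #57 against untreated cells, IRS1 changed by -0.12 in Huh7, 0.11 in MHCC97H and 1.16 in Hep3B, and IGF2R by 0.09 in Huh7 and -0.2 in Hep3B. For the combination against compound #57, IGF2 changed by 0.51 in Huh7 and -0.33 in Hep3B, and IGF2R by -0.14 in Huh7, 0.21 in MHCC97H and 0.76 in Hep3B. Huh7 had the lower value of IGF1R, IRS1 and IGF2R in all but 1 of these comparisons.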

How the results depend on the processing

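The number of the 6 genes called stayed within 1.5 times the reported one with 10 added to the linear values, the 75% of genes with the highest mean, centred libraries, voom and the adjustment for length and GC content. Without the cell line as a block, 0 of the 6 genes were called in each comparison of treatments, and with only the compared libraries 0 were called for AZD8055. Leaving out a line gave 0 calls for AZD8055, 0 to 3 for the combination against untreated cells and 0 for the combination against compound #57. These fits have fewer libraries. For AZD8055, calls among all genes fell from 342 to 0 without the block and to 2 with only the compared libraries. Without Huh7, Hep3B or MHCC97H they were 0, 1 or 109. Values that turned were all uncalled. The adjustment for length and GC content gave -0.13 for IGF1R with compound #57, -0.15 for IGF2 and -0.064 for IGF2R in the combination against untreated cells, and 0.016 for IRS1 and 0.089 for IGF2R in the interaction. Voom gave 0.045 for IGF2 in the combination against compound #57 and centring 0.028 for IGF1R between MHCC97H and Hep3B, and the cause was not tested. Leaving out lines gave -0.006 to 0.63 for IRS1 and -0.11 to 0.035 for IGF2R with compound #57. Against AZD8055 it gave -0.55 to 0.26 for IGF1R, -0.54 to 0.028 for IGF2R and -0.034 to 0.60 for IRS1 in the combination, and against compound #57 -0.47 to 0.092 for IGF2. In the interaction it gave -0.60 to 0.059 for IGF1R and -0.57 to 0.14 for IGF2R. Leaving out treatments gave -0.13 to 0.16 for INSR and -0.51 to 0.11 for IRS1 between Hep3B and Huh7 and -0.13 to 0.16 for IGF1R between MHCC97H and Hep3B. With 1 library per condition, depth limits IRS2 and IGF2 in MHCC97H, and all other values have over 100 reads.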
